A study of Mus musculus with 12 samples.

Results

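The genes described here encode 10 proteins of branched-chain amino acid and proline breakdown in muscle: Bcat2, Bckdha, Bckdhb, Dbt, Bckdk, Ppm1k, Ivd, Mccc1, Gpt2 and Prodh. They were chosen by name for their place in the pathway, with earlier results of these data known. Shares of members set against all genes are therefore descriptions. All 10 were found among the 10475 genes of the deposited abundance table. RNA came from the gastrocnemius, a calf muscle, of 8-week-old C57BL/6 mice on chow in a cycle of 12 h of light and 12 h of dark. Wild-type mice (WT) were compared with transgenic mice (TG) that overexpress E4BP4, a transcriptional repressor of the circadian output encoded by Nfil3, in the liver only. Muscle was taken at Zeitgeber time 0 (ZT0, lights on) and at ZT12 (lights off), which gave 4 groups of 3 libraries: WT at ZT0, TG at ZT0, WT at ZT12 and TG at ZT12. The labels give neither the promoter that drives the transgene nor whether each library is a separate mouse, so p-values measure the spread between libraries. The muscle is not the tissue labelled as overexpressing E4BP4.

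Leucine, isoleucine and valine are unusual among amino acids in that their breakdown starts largely in muscle rather than in the liver. Bcat2, the mitochondrial branched-chain aminotransferase, moves their amino group to 2-oxoglutarate, and the branched-chain keto acid dehydrogenase (BCKDH) complex then oxidises the keto acids irreversibly. The complex is switched off by the kinase Bckdk, which phosphorylates it, and switched on by the phosphatase Ppm1k. Gpt2, the mitochondrial alanine aminotransferase, passes amino groups on to alanine, and Prodh, proline dehydrogenase, takes the first step of proline breakdown in mitochondria.

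Values are transcript abundances in TPM, a unit that is scaled for transcript length and library size, so that levels of different genes can be set side by side. Reads recovered from TPM and transcript length were summed per library, in units of 1e+06. The sums ran from 9.21 to 13.15 at ZT0 and from 13.13 to 20.16 at ZT12, so depth and time cannot be fully told apart. At ZT12 every TG library (13.13 to 15.78) was also shallower than every WT library (17.72 to 20.16), whereas at ZT0 the genotypes overlapped in depth. Any TG to WT difference at ZT12, such as those of Bcat2, Bckdhb and Klf15 below, thus also compares shallower with deeper libraries. Library WT ZT0 replicate 2 had the highest median TPM (9.26) and TG ZT12 replicate 1 the lowest (4.96). All 10 myofibre markers were listed, with summed levels of 85500 to 103000 TPM, and none of 6 hepatocyte or 4 lymphocyte markers was. The list holds only genes that reached 1 TPM in the first WT library at ZT0. Markers missing from it may still have been present in other libraries, where their levels are unknown. The 5 red cell markers summed to 86.2 to 163 TPM at ZT0 and to 145 to 4560 TPM at ZT12. The 8 adipocyte markers summed to 1700 to 2750 TPM at ZT0 and to 1690 to 2000 TPM at ZT12. The 7 slow fibre markers summed to 153 to 700 TPM at ZT0 and to 264 to 789 TPM at ZT12. For 5 macrophage markers these ranges were 45.8 to 265 and 48.5 to 150 TPM. For 5 endothelial markers they were 39.4 to 79.0 and 29.0 to 62.6 TPM. The 4 fibro-adipogenic markers summed to 256 to 330 TPM at ZT0. At ZT12 they summed to 342 to 356 TPM in WT and to 253 to 322 TPM in TG. The part of blood, fat or these cell types in the results below was not tested. Nfil3 itself was at 13.6 to 20.3 TPM in TG muscle and 16.0 to 18.7 TPM in WT muscle at ZT0, and at 7.96 to 20.9 TPM and 7.40 to 14.0 TPM at ZT12. These muscle values do not check a transgene that acts in the liver. In whole muscle, fewer cells of a type and less RNA per cell cannot be told apart.

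The 10 genes spanned a wide range of levels. Gpt2 was the most abundant, with a mean of 133 TPM over the 12 libraries, and its lowest library (84.1 TPM) lay above the highest library of any other member. Bckdha and Bckdk followed, each with a mean of 61.7 TPM, then Ivd at 50.6 TPM and Bcat2 at 35.8 TPM, and each of these neighbours overlapped in range with the next. Below a gap came Bckdhb at 13.0 TPM, Dbt at 10.5 TPM and Mccc1 at 9.70 TPM, again overlapping. Prodh (3.35 TPM) and Ppm1k (2.88 TPM) were the scarcest, with 56 to 200 and 159 to 451 reads per library. Their ranges overlapped each other and lay below that of every other member.

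The members also differed in their spread over the 12 libraries. In deposited TPM, Bckdk had the smallest coefficient of variation (5.71%) and Prodh the largest (44.4%), with Ppm1k second at 22.4%. The other 7 ran from 8.76% for Bcat2 to 16.8% for Dbt. After median-of-ratios scaling, which sets the typical gene equal between libraries, Mccc1 had the smallest (5.56%), Bckdk was at 9.03% and Prodh still had the largest (39.5%).

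**Figure D1:**
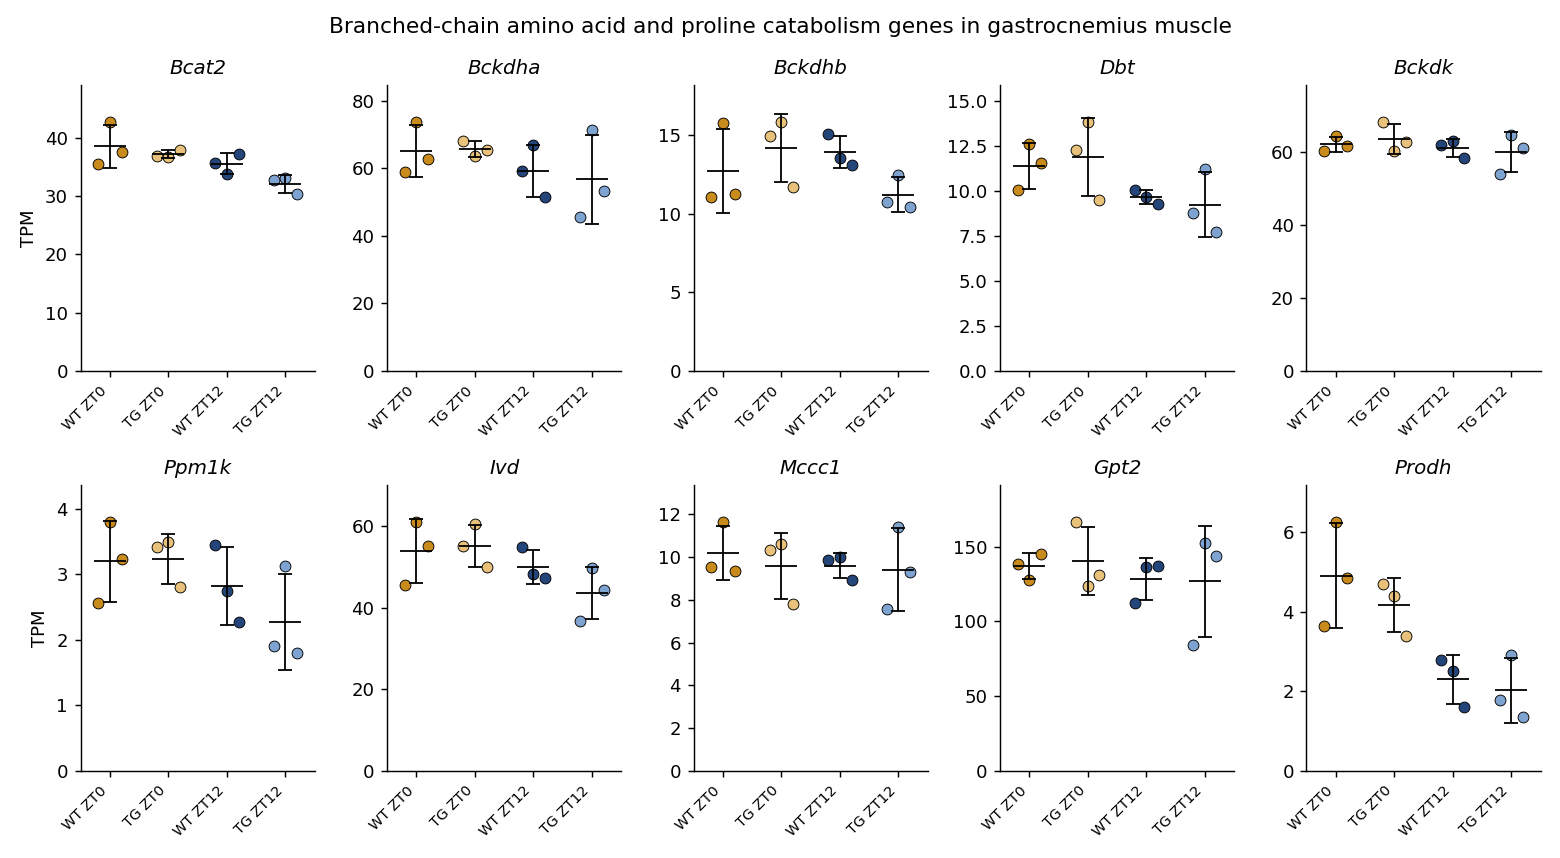
Level of each of the 10 genes in every library (TPM, linear axes from 0, one panel per gene). Points are libraries in order of replicate number, horizontal bars are means and error bars are SD (n = 3); in the Prodh panel all 6 ZT12 points (1.35 to 2.92 TPM) lie under all 6 ZT0 points (3.40 to 6.26 TPM), while the other panels overlap between times.

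Prodh was the 1 member called as different between the times of day over both genotypes. In WT muscle at ZT0 its level was 3.63, 6.26 and 4.85 TPM, and in TG muscle at ZT0 it was 4.70, 4.41 and 3.40 TPM. At ZT12 it was 2.79, 2.51 and 1.61 TPM in WT and 1.79, 2.92 and 1.35 TPM in TG. Every ZT12 library was below every ZT0 library, in both genotypes, whereas WT and TG overlapped at each time. The mean fell from 4.54 ± 1.02 TPM (SD, n = 6) at ZT0 to 2.16 ± 0.659 TPM (SD, n = 6) at ZT12, a ratio of 0.476.

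On the scale used for testing, log2(TPM + 1), the difference of Prodh between ZT12 and ZT0 over both genotypes was -0.82 (SE 0.16, 95% interval -1.16 to -0.48, limma adjusted p = 0.0239 over 10415 genes). Adding 1 to the TPM shrinks changes of scarce genes, and with 0.1 added the difference was -1.06. Prodh ranked 79th by p among all genes in this comparison. It was 1 of 10 members called lower, against 0.614% of all genes (64 of 10415), and 1 of 10 whose ZT0 and ZT12 libraries did not overlap with ZT12 lower, against 0.989%. The difference had nearly the same size in WT (-0.84) and in TG (-0.80), and the difference between the genotypes in this respect was 0.04 (SE 0.33, 95% interval -0.69 to 0.76). Within 1 genotype, with 3 libraries against 3, neither passed the threshold (limma adjusted p = 0.358 in WT and 0.577 in TG).

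The call on Prodh is close to the threshold. It was lost when WT ZT0 replicate 3 (adjusted p = 0.0619), TG ZT0 replicate 1 (0.0741) or 2 (0.0707), WT ZT12 replicate 2 (0.0589) or 3 (0.0688), or TG ZT12 replicate 3 (0.0598) was left out of the limma fit, with the difference between -0.91 and -0.74 over all 12 such fits. It was also lost with log2 depth as a covariate (difference -1.10, limma adjusted p = 0.525), a fit that called 2 genes in all. After median-of-ratios scaling the 6 ZT12 libraries ran from 1.36 to 2.72 TPM and the 6 ZT0 libraries from 3.70 to 5.26 TPM, so the times still did not overlap. The red cell markers also moved with time, with 176 TPM in WT and 145 TPM in TG replicate 3 at ZT12 and 1530 to 4560 TPM in the other ZT12 libraries, and their part in the Prodh difference was not tested. 

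Prodh lies on chromosome 16 at 18071726 to 18089190, minus strand, in the mm10 coordinates of the deposited tables, and no annotated exon of another gene overlaps its exons. Because Prodh was the called member and Bckdk the one with the smallest variation in deposited TPM, the 250 bases before the start of each are shown, 5′ to 3′ on the gene's own strand, from RefSeq on GRCm38.p6. Capitals mark CACCC on either strand (GGGTG is its reverse complement), the core of the CACCC box that Krüppel-like factors bind. The Prodh window is chr16:18089191-18089440, minus strand, and the Bckdk window is chr7:127903823-127904072, plus strand.
Prodh: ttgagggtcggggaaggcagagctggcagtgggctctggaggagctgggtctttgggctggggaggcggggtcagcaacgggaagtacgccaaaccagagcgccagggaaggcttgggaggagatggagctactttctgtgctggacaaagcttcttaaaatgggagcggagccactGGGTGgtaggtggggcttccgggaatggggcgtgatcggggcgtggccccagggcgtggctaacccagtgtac
Bckdk: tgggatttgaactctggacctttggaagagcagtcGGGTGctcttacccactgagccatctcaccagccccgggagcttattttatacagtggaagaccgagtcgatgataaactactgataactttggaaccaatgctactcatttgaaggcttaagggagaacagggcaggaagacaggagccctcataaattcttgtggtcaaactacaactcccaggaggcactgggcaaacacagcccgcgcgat

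Each of the windows holds 1 match, at 73 to 69 bases before the start in Prodh and at 215 to 211 bases before it in Bckdk. CACCC is common: it occurs on either strand in 51.3% of 27025 promoter windows of this length and in 57.1% of the 7989 that belong to listed genes. Of the members, 9 matched an entry of the promoter table, and Dbt did not. The other motifs searched on both strands were the E-box CACGTG, the D-box (TTATGTAA or TTACGTAA) that E4BP4 and related factors bind, the nuclear receptor core AGGTCA and the glucocorticoid receptor core AGAACA. The Prodh window holds none of these letters, and the Bckdk window holds 1 AGAACA. These motifs occur in 8.9%, 0.6%, 10.3% and 10.3% of the windows of listed genes. A match is a string of letters and not a site shown to be bound.

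The next enzyme of proline breakdown was not called. Aldh4a1, which oxidises the product of Prodh to glutamate, had a mean of 44.8 TPM over the 12 libraries and differed by -0.13 (SE 0.10, 95% interval -0.36 to 0.09) between ZT12 and ZT0 over both genotypes.

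Bcat2 (chromosome 7, 45572870 to 45589710, plus strand) opens the branched-chain route. It measured 35.4, 42.6 and 37.5 TPM in WT at ZT0 and 36.8, 36.7 and 38.0 TPM in TG at ZT0. At ZT12 it measured 35.6, 33.7 and 37.2 TPM in WT and 32.8, 33.1 and 30.4 TPM in TG. The TG libraries at ZT12 were the lowest of the 12, below every WT library at that time and every TG library at ZT0. The difference of log2(TPM + 1) between TG and WT at ZT12 was -0.14 (SE 0.10, 95% interval -0.36 to 0.07, limma adjusted p = 1), and between the times over both genotypes it was -0.16 (SE 0.07, 95% interval -0.30 to -0.01, limma adjusted p = 0.57). After median-of-ratios scaling the TG and WT libraries at ZT12 overlapped. An antisense gene, 0610005C13Rik, overlaps exons of Bcat2, and the library kit did not keep strand, so reads of the overlap cannot be told apart.

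The BCKDH complex is built from the E1 subunits Bckdha and Bckdhb, which decarboxylate the keto acids, and the E2 core Dbt, which transfers the acyl group to coenzyme A. Its E3 subunit, Dld, is shared with other dehydrogenase complexes. Bckdha measured 58.9, 73.6 and 62.8 TPM in WT at ZT0 and 68.1, 63.6 and 65.5 TPM in TG at ZT0. It measured 59.1, 67.0 and 51.6 TPM in WT at ZT12 and 45.6, 71.4 and 53.3 TPM in TG at ZT12. The groups overlapped throughout. B3gnt8, a gene on the opposite strand, overlaps its exons.

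Bckdhb (chromosome 9, 83925137 to 84124240, plus strand) measured 11.1, 15.8 and 11.2 TPM in WT at ZT0 and 14.9, 15.8 and 11.7 TPM in TG at ZT0. At ZT12 it measured 15.0, 13.6 and 13.1 TPM in WT and 10.7, 12.5 and 10.4 TPM in TG. The WT and TG libraries at ZT12 did not overlap, with TG lower, whereas at ZT0 they did. Its TG to WT difference at ZT12, -0.29 (SE 0.16, 95% interval -0.64 to 0.06, limma adjusted p = 1), was the largest of the members, and the difference of that from ZT0 was -0.44 (SE 0.22, 95% interval -0.93 to 0.05, limma adjusted p = 1). After median-of-ratios scaling the genotypes overlapped at ZT12 but not at ZT0, where the levels were 11.3, 12.2 and 12.2 TPM in WT and 14.6, 15.7 and 13.1 TPM in TG. The scaled WT libraries at ZT12 (14.7, 12.8 and 13.4 TPM) also lay above those at ZT0.

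Dbt measured 10.04, 12.6 and 11.6 TPM in WT at ZT0, 12.3, 13.8 and 9.53 TPM in TG at ZT0, 10.1, 9.66 and 9.27 TPM in WT at ZT12, and 8.78, 11.2 and 7.71 TPM in TG at ZT12. Of the 6 ZT12 libraries, 3 lay below every ZT0 library. After Prodh, Dbt had the largest difference between the times over both genotypes, -0.27 (SE 0.11, 95% interval -0.51 to -0.03), which did not pass the threshold (limma adjusted p = 0.535). Dld differed by 0.09 (SE 0.09, 95% interval -0.09 to 0.28) between the times.

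Between the groups, the proportions of the E1 and E2 transcripts overlapped. The ratio of Bckdha to Bckdhb in TPM averaged 5.20 ± 0.470 in WT and 4.73 ± 0.796 in TG at ZT0, and 4.27 ± 0.585 in WT and 5.03 ± 0.743 in TG at ZT12 (SD, n = 3 each). The ratio of Bckdha to Dbt averaged 5.67 to 6.15 in the 4 groups. These ratios compare transcripts and say nothing of the protein complex.

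The kinase and the phosphatase of the complex differed in their spread, with coefficients of variation of 5.71% and 22.4% in deposited TPM. After median-of-ratios scaling these were 9.03% and 18.5%. Bckdk rested on 1913 to 4158 reads per library and Ppm1k on 159 to 451. The part of read number in their spread was not tested. Bckdk ran from 54.0 to 68.1 TPM over the 12 libraries, with group means at ZT0 of 62.0 ± 2.12 TPM (WT) and 63.6 ± 4.09 TPM (TG) and at ZT12 of 61.1 ± 2.55 TPM (WT) and 59.9 ± 5.43 TPM (TG) (SD, n = 3 each). Its interval between the times over both genotypes was -0.20 to 0.09, and between the genotypes over both times -0.14 to 0.14, the narrowest of the members. Ppm1k measured 2.56, 3.80 and 3.24 TPM in WT at ZT0, 3.41, 3.50 and 2.80 TPM in TG at ZT0, 3.44, 2.75 and 2.27 TPM in WT at ZT12, and 1.91, 3.12 and 1.80 TPM in TG at ZT12. Its lowest libraries were at ZT12, but the groups overlapped, and the difference between the times was -0.26 (SE 0.14, 95% interval -0.55 to 0.03, limma adjusted p = 0.788). The ratio of Bckdk to Ppm1k averaged 19.8 ± 3.35 in WT and 19.8 ± 2.59 in TG at ZT0, and 22.2 ± 3.87 in WT and 27.7 ± 6.66 in TG at ZT12 (SD, n = 3 each), with overlapping libraries.

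Downstream of the complex, leucine carbon passes through Ivd, isovaleryl-CoA dehydrogenase, and Mccc1, the biotin-carrying subunit of methylcrotonyl-CoA carboxylase. Ivd measured 45.6, 61.0 and 55.0 TPM in WT at ZT0, 55.1, 60.4 and 49.9 TPM in TG at ZT0, 54.8, 48.2 and 47.1 TPM in WT at ZT12, and 36.8, 49.7 and 44.3 TPM in TG at ZT12. In TG muscle the ZT12 libraries lay below the ZT0 libraries, and in WT muscle the times overlapped. The difference in TG was -0.34 (SE 0.14, 95% interval -0.64 to -0.03, limma adjusted p = 1), and its difference from that in WT was -0.24 (95% interval -0.67 to 0.19). Mccc1 ran from 7.55 to 11.6 TPM, with group means between 9.42 and 10.2 TPM, and differed by -0.05 (SE 0.11, 95% interval -0.29 to 0.19) between the times. Antisense genes overlap its exons.

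Gpt2 measured 138, 128 and 145 TPM in WT at ZT0, 166, 124 and 131 TPM in TG at ZT0, 112, 136 and 137 TPM in WT at ZT12, and 84.1, 153 and 144 TPM in TG at ZT12. The low value came from TG ZT12 replicate 1, the library with the lowest median TPM. The difference between the times over both genotypes was -0.14 (SE 0.14, 95% interval -0.43 to 0.15). Its cytosolic relative Gpt was scarcer, with a ratio of Gpt2 to Gpt of 13.1 ± 1.65 to 15.0 ± 2.21 (SD, n = 3) in the WT groups.

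**Figure D2:**
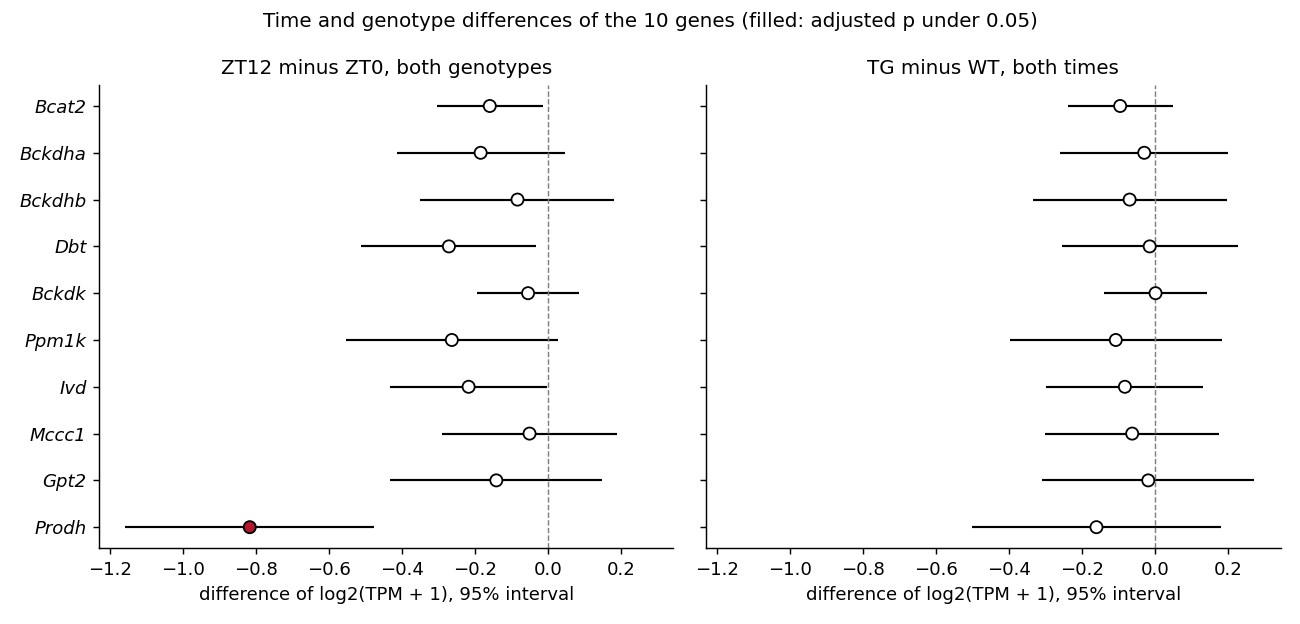
Difference of log2(TPM + 1) for each of the 10 genes, left between ZT12 and ZT0 over both genotypes and right between TG and WT over both times. Points are limma estimates from 12 libraries and lines are 95% intervals; Prodh at -0.82 is the one filled point (adjusted p under 0.05), and every interval on the right crosses 0.

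Across the set, the direction between the times over both genotypes was shared but small. The median shift was larger in TG than in WT, as given below, though no member was called for the interaction of genotype and time. All 10 members had a lower estimate at ZT12 than at ZT0 over both genotypes, with a median difference of -0.17 against -0.03 for all genes tested. Without Prodh the estimates ran from -0.27 to -0.05. At an unadjusted p under 0.05, limma gave 4 of 10 members (Prodh, Dbt, Bcat2 and Ivd), against 765 of 10415 genes. All 10 were also lower under median-of-ratios, upper-quartile and quantile scaling, while Mccc1 turned to 0.01 without TG ZT12 replicate 1, and Mccc1 (0.06) and Bckdhb (0.01) turned when that library and WT ZT0 replicate 2 were both left out. Most pairs of members also moved together between libraries of 1 group, so the shared sign is not 10 separate observations. Over the 12 libraries, the correlation between 2 members had a median of 0.66 in 45 pairs on log2(TPM + 1), and of 0.59 once each group's mean was removed. After median-of-ratios scaling these medians were 0.40 and 0.42. With scaling and the group means removed, 36 of 45 pairs were above 0, and Bckdhb with Gpt2 was lowest at -0.60. No median over pairs of all genes was taken for comparison. The pairs share their libraries and thus depth and scaling.

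In WT the median difference of the members between the times was -0.11, against -0.05 for all genes. There 9 of 10 members were lower at ZT12, and Bckdhb was higher (0.14). In TG the median was -0.27, against -0.01 for all genes, with all 10 lower. No share of all genes lower at ZT12 was taken for comparison. Within WT muscle 1 of 10 members (Prodh) did not overlap between the times with ZT12 lower, against 5.2% of all genes. Within TG muscle 3 did (Prodh, Ivd and Bcat2), against 3.87%. After median-of-ratios scaling these were Prodh, Ivd and Ppm1k in TG, against 5.51% of all genes. In WT the scaled Prodh was lower (against 7.44%) and the scaled Bckdhb higher (against 7.54%) at ZT12 without overlap. No member was called in either genotype alone, where limma called 0.115% of all genes in WT (12) and 0.154% in TG (16).

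No member was called between TG and WT. Limma called 0 of 10 members at ZT0, at ZT12, over both times and for the interaction of genotype and time, against 0% of all genes in each. At an unadjusted p under 0.05 it also gave 0 members, while 117 genes (1.12%) passed at ZT0, 99 (0.951%) at ZT12, 166 (1.59%) over both times and 69 (0.663%) for the interaction. Over both times the estimates ran from -0.16 for Prodh to 0.00 for Bckdk, with intervals that together reached from -0.50 to 0.27. The median of -0.07 lay beside -0.09 for all genes. Scaling set the sign: 9 members were lower in TG as deposited, and 2 under median-of-ratios scaling, 3 under upper-quartile scaling and 3 under quantile scaling, which move the median of all genes from -0.09 to between -0.01 and 0.01.

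At ZT0, 7 of the members were higher in TG (9 under each of those scalings), with no member free of overlap by deposited TPM, against 1.4% of all genes higher and 3.22% lower. After median-of-ratios scaling 1 of 10 was (Bckdhb, higher in TG), against 2.88% of all genes higher. At ZT12 all 10 were lower in TG by the deposited TPM, with a median of -0.11 against -0.07 for all genes, and with Bcat2 and Bckdhb free of overlap (2 of 10, against 4.26% of all genes). That direction depended on the scaling: 5 of 10 were lower with a median of -0.02 under median-of-ratios scaling, 7 under upper-quartile scaling and 6 under quantile scaling, and with log2 depth as a covariate 2 were. After median-of-ratios scaling neither gene was free of overlap, against 3% of all genes lower. In the authors' deposited table, which tests TG against WT within each time, the log2 fold changes of the members lay between -0.04 and 0.06, with an adjusted p-value of 0.9999 for each. Bckdhb at ZT12 was -0.035 there and -0.29 by limma, and Bckdha at ZT0 was 0.058 and 0.019. The sizes therefore cannot be set side by side with the limma differences.

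The wider pathway was read from a list of 41 further enzymes and carriers, of which 37 were tested, and 6 regulators. Between the times over both genotypes, limma called 2 of the 37 lower and 1 higher, against 0.614% and 0.403% of all genes, and 0 of the 6 regulators. Their median difference was -0.02, beside -0.03 for all genes. The 5 tested enzymes of the leucine branch lay between -0.10 and 0.19, those of the valine branch between -0.13 and -0.02, those of the isoleucine branch between -0.05 and 0.04, and the 4 of the propionyl-CoA route between -0.12 and 0.15, with none called.

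**Figure D3:**
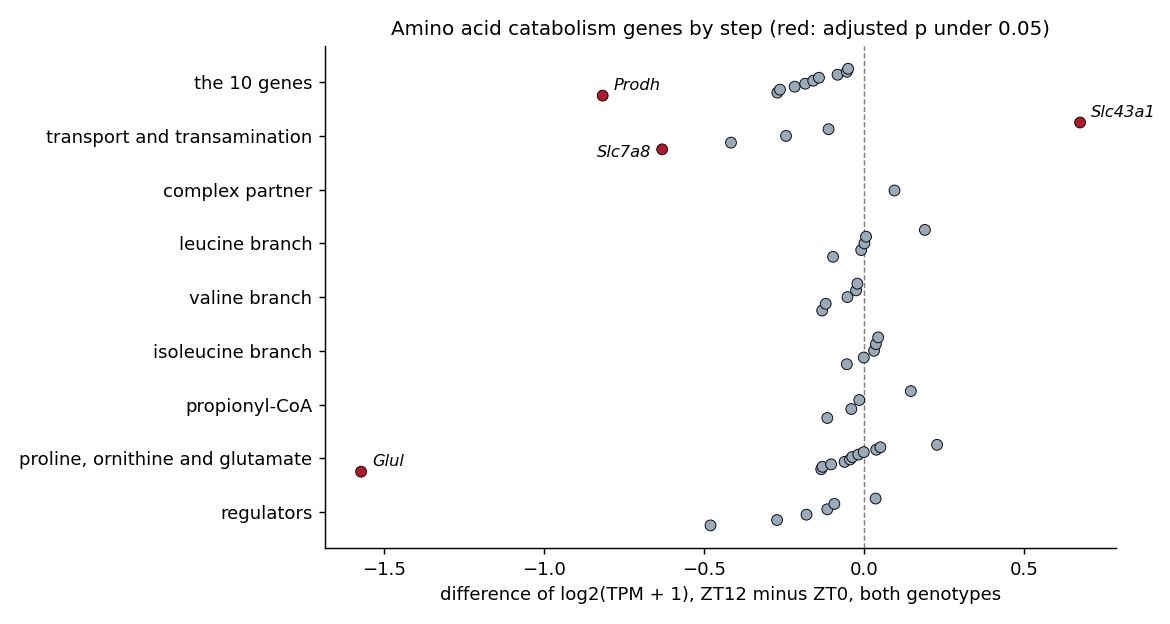
Difference of log2(TPM + 1) between ZT12 and ZT0 over both genotypes for the 10 genes and for the wider list, grouped by step of the pathway (vertical position within a row only separates points). Red points have an adjusted p under 0.05 (limma); apart from Prodh these are Glul at -1.57, Slc7a8 at -0.63 and Slc43a1 at 0.67, and the enzyme branches cluster around 0.

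Glul, glutamine synthetase, which makes glutamine, fell furthest. It measured 130, 139 and 141 TPM in WT at ZT0, 161, 134 and 110 TPM in TG at ZT0, 41.2, 48.5 and 45.9 TPM in WT at ZT12, and 31.5, 65.0 and 42.1 TPM in TG at ZT12. The times did not overlap in either genotype. The difference over both genotypes was -1.57 (SE 0.14, 95% interval -1.88 to -1.26, limma adjusted p = 8.64e-05). It lost its call with log2 depth as a covariate (difference -1.80, adjusted p = 0.128). Over the 12 libraries, log2(TPM + 1) of Prodh and of Glul had a correlation of 0.89, as a description of values that share libraries. Both genes were lower in every ZT12 than in every ZT0 library, so part of this correlation follows from the time difference. No value with the group means removed was taken for this pair.

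Both called carriers moved, in opposite directions. Slc7a8 encodes a light chain that exchanges large neutral amino acids across the cell membrane together with Slc3a2. It measured 4.01, 5.72 and 4.66 TPM in WT at ZT0, 5.62, 4.95 and 4.51 TPM in TG at ZT0, 3.12, 2.96 and 2.76 TPM in WT at ZT12, and 1.75, 3.73 and 2.75 TPM in TG at ZT12. All ZT12 libraries lay below all ZT0 libraries, and the difference was -0.63 (SE 0.13, 95% interval -0.92 to -0.34, limma adjusted p = 0.0422). That call was lost in 9 of the 12 limma fits that left out 1 library, each library but WT ZT0 replicate 1 and TG ZT12 replicates 1 and 2, with an adjusted p of up to 0.127, and with log2 depth as a covariate (difference -1.14, adjusted p = 0.365).

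Slc43a1 encodes a uniporter for branched-chain and other large neutral amino acids. It measured 3.27, 3.26 and 4.02 TPM in WT at ZT0, 3.15, 2.79 and 2.65 TPM in TG at ZT0, 6.71, 4.99 and 5.75 TPM in WT at ZT12, and 5.71, 4.76 and 6.22 TPM in TG at ZT12. All ZT12 libraries lay above all ZT0 libraries, the reverse of Prodh, while after median-of-ratios scaling the lowest ZT12 library (4.24 TPM) fell just under the highest ZT0 library (4.37 TPM). The difference was 0.67 (SE 0.10, 95% interval 0.45 to 0.90, limma adjusted p = 0.00577), and it lost its call with log2 depth as a covariate (difference 0.71, adjusted p = 0.525).

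**Figure D4:**
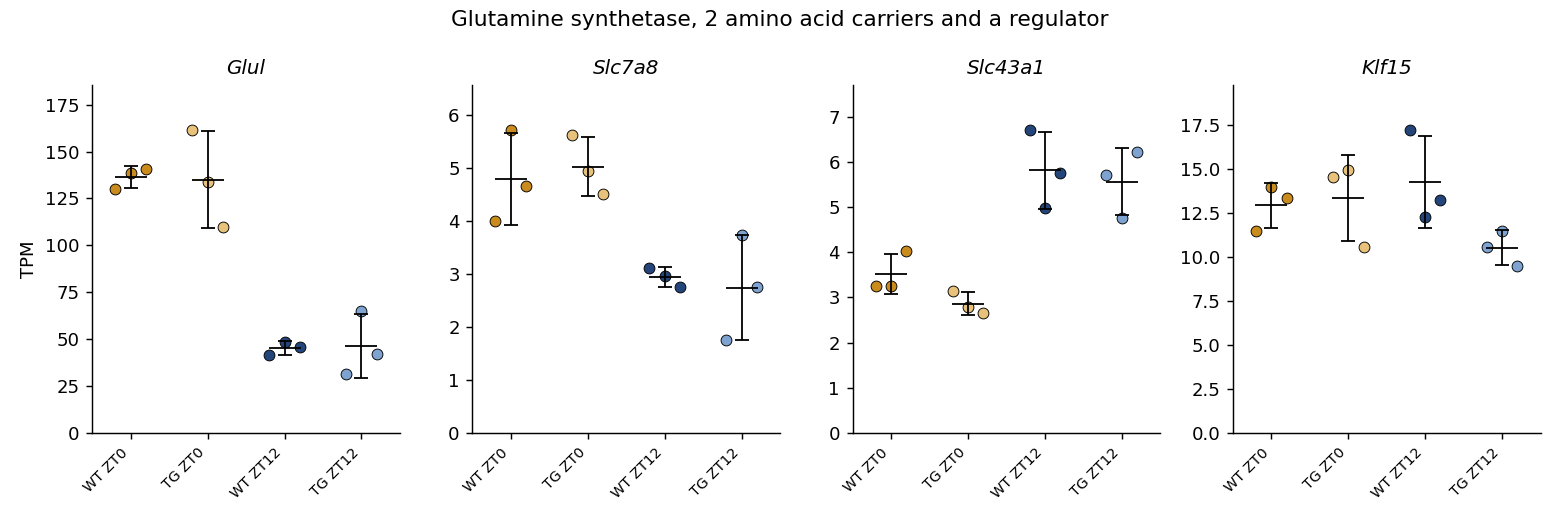
Levels of Glul, Slc7a8, Slc43a1 and Klf15 in every library (TPM, linear axes from 0). Points are libraries in order of replicate number, horizontal bars are means and error bars are SD (n = 3); Glul and Slc7a8 are lower and Slc43a1 higher in all ZT12 than in all ZT0 libraries, and Klf15 overlaps between times.

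Klf15, a Krüppel-like factor known to activate branched-chain amino acid breakdown in muscle, measured 11.5, 14.0 and 13.4 TPM in WT at ZT0, 14.5, 15.0 and 10.5 TPM in TG at ZT0, 17.2, 12.3 and 13.3 TPM in WT at ZT12, and 10.6, 11.5 and 9.49 TPM in TG at ZT12. At ZT12 the TG libraries lay below the WT libraries, as they did for 4.26% of all genes, and after median-of-ratios scaling they overlapped. The difference there was -0.39 (SE 0.16, 95% interval -0.75 to -0.04, limma adjusted p = 1), and its difference from ZT0 was -0.43 (SE 0.23, 95% interval -0.93 to 0.08, limma adjusted p = 1). Nr3c1, the glucocorticoid receptor, differed by -0.18 (95% interval -0.51 to 0.15) between the times over both genotypes. In that comparison 2 of the 6 regulators had an unadjusted limma p under 0.05. These were Tfeb at -0.27 (95% interval -0.42 to -0.13, limma adjusted p = 0.0957) and Ppara at -0.48 (95% interval -0.805 to -0.156, limma adjusted p = 0.234).

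The 5 listed genes whose log2(TPM + 1) followed that of Prodh most closely over the 12 libraries were Il15ra, with a Pearson correlation of 0.949, Adamtsl4 (0.946), Dusp7 (0.943), Per3 (0.933) and Klhdc3 (0.932). Among the members, Prodh was closest to Dbt and Ppm1k, each with a correlation of 0.87, and least close to Gpt2 at 0.29. Of all member pairs, Ppm1k and Ivd were closest (0.91) and Bckdhb and Gpt2 least close (0.10).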

How the data were processed

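RNA of 12 gastrocnemius libraries was measured. Per the submitters' processing notes, bcl2fastq, STAR, HOMER 4.11.1 and DESeq2 were used on mm10. The authors deposited a TPM table of 10475 genes, each with at least 1 TPM in WT ZT0 replicate 1. Per the file headers, 2 further tables, 1 for each time, were made with HOMER from reads on exons. They hold values per library that are headed FPKM but lie on a log2 scale (not used here), the authors' deposited log2 fold changes and p-values for TG against WT, and transcript lengths.

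The 10415 genes with at least 1 TPM in 3 libraries were fitted on log2(TPM + 1) with limma 3.58.1 (trend) in R 4.3.3: a mean per group for comparisons within a time or genotype and the interaction, and genotype plus time for those over both. Calls needed a Benjamini-Hochberg adjusted p under 0.05 over all genes tested. Reads were recovered as whole multiples of TPM times length (98.43 to 98.75% of values under 500 reads, within 0.1 read). For reads, the lengths of the ZT0 table were used. Tested on simulated data for ZT12 against ZT0 over both genotypes, the fit on 10415 genes found 54% of 1.5-fold and 94% of 2-fold changes, and within WT alone 22% and 62%. The changes were given only to genes with a mean of at least 5 TPM and were added on the log2(TPM + 1) scale. Prodh (3.35 TPM) and Ppm1k (2.88 TPM) lie below that level, so these percentages do not cover them.

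Named genes were the members, Klf15, Nr3c1 and called genes of the wider lists, with the 5 genes most alike to Prodh. Tfeb and Ppara were added for their unadjusted p between the times. The members and lists were chosen with earlier results of these data known. Alternatives for Klf15, Glul and the carriers, for the median of the members and for overlap and spread after scaling were chosen after seeing the data. Overlapping exons were read from GENCODE. Python 3.11.15, pandas 2.3.3 and matplotlib 3.10.9 made tables and figures.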

Additional observations from a re-analysis of the deposited data

How the results depend on the processing

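The count of members called between the times over both genotypes was 1 as reported and 0 with a filter of 5 TPM, which removed Prodh and Ppm1k, and with log2 depth as a covariate. It ranged from 0 to 1 with each library left out in turn. Limma called 106 genes in that comparison, and 233 with median-of-ratios, 220 with upper-quartile and 217 with quantile scaling, 217 with limma-voom on recovered reads, 464 when TG ZT12 replicate 1 and WT ZT0 replicate 2 were both left out, and 2 with the depth covariate. Deviations of same-numbered libraries correlated at -0.348 to 0.29 (18 pairs, median 0.063). Pairs with unlike numbers had a median correlation of -0.016. For 6 of the 12 libraries, the mean correlation with libraries of other groups was highest for their own one of the 3 replicate numbers. What the replicate number stands for was not tested. With the replicate block, limma gave Prodh an adjusted p of 0.00981 and called 130 genes and the same count of members.

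Signs of the small TG to WT differences over both times turned with the scaling. With median-of-ratios scaling they were 0.01 for Bcat2, 0.07 for Bckdha, 0.03 for Bckdhb, 0.08 for Dbt, 0.02 for Ivd, 0.03 for Mccc1 and 0.08 for Gpt2. With upper-quartile scaling they were 0.07 for Bckdha, 0.02 for Bckdhb, 0.07 for Dbt, 0.01 for Ivd, 0.02 for Mccc1 and 0.08 for Gpt2. With quantile normalization they were 0.03 for Bckdha, 0.03 for Bckdhb, 0.09 for Dbt, 0.02 for Ppm1k, 0.05 for Mccc1 and 0.04 for Gpt2. Without both libraries named above they were 0.09 for Bckdha, 0.02 for Bckdhb, 0.03 for Dbt, 0.02 for Ivd, 0.05 for Mccc1 and 0.09 for Gpt2. With the depth covariate they were 0.07 for Bckdha, 0.08 for Bckdhb, 0.05 for Dbt, 0.03 for Ppm1k, 0.07 for Ivd and 0.07 for Gpt2. With limma-voom they were 0.01 for Dbt and Gpt2. Leaving out 1 library gave -0.10 to 0.04 for Bckdha, -0.07 to 0.04 for Dbt, -0.02 to 0.04 for Bckdk and -0.08 to 0.11 for Gpt2. Between the times, Bckdhb was 0.01 and Mccc1 0.06 without both libraries, and Mccc1 ranged from -0.11 to 0.01 with 1 library left out. For Prodh, TG against WT at ZT12 was 0.12 with the depth covariate and -0.35 to 0.02 with 1 library left out. Its interaction was -0.02 with upper-quartile and with quantile scaling, -0.08 without both libraries, and -0.17 to 0.20 with 1 left out. The cause was not tested.

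With 3 libraries a group, the 95% interval of a member within 1 time or genotype was at least 0.21 and at most 0.51 to either side. Prodh rested on 56 to 200 reads per library.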
